A study of Mus musculus with 10 samples.

Results

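The cadherins and protocadherins on the array were the probes whose single gene symbol is Cdh followed by a number or begins with Pcdh. There were 51 such probes for 46 genes, among 21766 probes and 15063 named genes in all. The rostral and caudal ends of the mouse neocortex were compared at embryonic stage E11.5 in C57, which is inbred, and MF1, which is outbred. Tissue was pooled from 3 embryos. From each pool, RNA of either end was extracted with Trizol and amplified as cDNA, and both ends went onto the same array, one in Cy3 and the other in Cy5. A second array of the pool had the dyes exchanged. The 10 arrays hold 2 pools of C57 (4 arrays) and 3 pools of MF1 (6 arrays). No genotype, drug or other treatment is given for either group.

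Cadherins are calcium-dependent adhesion proteins of the cell surface. The classical cadherins bind their own kind on a neighbouring cell and hold the actin cytoskeleton through catenins; type I members such as Cdh2 (N-cadherin) make the apical junctions of the neuroepithelium, and type II members such as Cdh6, Cdh8, Cdh10 and Cdh11 are known for expression in sharply bounded fields of the embryonic forebrain. Protocadherins are a larger branch of the family: the delta protocadherins are encoded by single genes and mark regions and cell groups of the brain, and the clustered protocadherins are strings of similar exons in alpha, beta and gamma clusters from which single neurons express a few.

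Values below are log2 ratios, caudal over rostral, after each array was centred on its median. A ratio of 0 is thus the middle of the probes, and a negative one stands for more RNA at the rostral end. The sign rests on reading the deposited numbers as Cy5 over Cy3, which is likely but which the files do not state; the other reading would turn every sign. On this reading Nr2f1, a transcription factor known to be high in caudal cortex, had a mean ratio of 1.76 ± 0.27 (SE) on one of its probes and 0.48 ± 0.16 on the other. Spry1, a target of the FGF signals that come from the rostral midline, had -1.37 ± 0.14. Etv1 and Dusp6, also read for their known gradients, had -1.49 ± 0.14 and -1.16 ± 0.15. The probes of Etv5 had -0.515 ± 0.12 and -0.18 ± 0.14. The gradient genes Emx2 and Pax6 did not bear on the sign: Emx2 had 0.02 ± 0.13, and the probes of Pax6 had 0.04 ± 0.17 and -0.07 ± 0.12. A ratio gives no level, so the tissue could not be checked by the abundance of its markers, genes cannot be ranked by expression, and fewer cells of a type cannot be told apart from less RNA per cell.

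The genes whose regional ratios are most worth showing in their sequence context are Cdh10, which had the smallest p among these probes, and Cdh6, whose widest gap between the arrays of a pool was the smallest among the tested probes. Both are type II cadherins, and both lie on chromosome 15. The 250 bases before the start of each gene are given 5′ to 3′ on the gene's strand, from RefSeq on GRCm38.p6, with CG dinucleotides in capitals. The window is chr15:18820079-18820328 (plus strand) for Cdh10 and chr15:13173676-13173925 (minus strand) for Cdh6.
Cdh10: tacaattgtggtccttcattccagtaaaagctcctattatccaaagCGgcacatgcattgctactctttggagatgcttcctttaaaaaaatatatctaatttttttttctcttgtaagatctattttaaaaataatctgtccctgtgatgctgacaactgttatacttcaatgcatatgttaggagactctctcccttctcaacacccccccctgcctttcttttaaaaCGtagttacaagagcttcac
Cdh6: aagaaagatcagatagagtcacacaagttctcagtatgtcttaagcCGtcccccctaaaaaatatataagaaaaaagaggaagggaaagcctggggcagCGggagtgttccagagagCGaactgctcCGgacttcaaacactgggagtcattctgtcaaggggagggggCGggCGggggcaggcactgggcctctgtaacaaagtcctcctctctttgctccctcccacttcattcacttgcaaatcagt
The Cdh10 window holds 2 CG dinucleotides and 36.8% G or C, and the Cdh6 window holds 6 and 51.2%. Across 32851 such windows the median was 6 CG dinucleotides and 52.4% G or C, and 29.0% of windows held no more CG dinucleotides than that of Cdh10. Neither window contains CAGGTG or its reverse complement CACCTG, the E-box best known as the site of Snail-family repressors at the Cdh1 promoter. The motif occurs in 17.2% of all the windows and in 1 of the 18 windows that the table holds for 17 of the 46 genes (5.56%). These arrays measured no binding or methylation, so the motif search is a description of the sequence only.

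Many of the cadherin and protocadherin probes gave no ratio on some MF1 arrays. A probe was measured on a median of 8 arrays (3 to 10), and 10 of the 51 on all of them. In C57, 93.6% of the possible values were present, against 94.4% over all probes, and in MF1 59.5%, against 72.6%. The delta protocadherins had 48.1% in MF1, and the atypical cadherins 45.8%. Of the 51 probes, 19 for 18 genes had a ratio in both dye orders from 2 or more pools per strain and were tested (37.3%, against 54.5% of the other probes), while 32 were not, which leaves 28 genes without a test. A missing ratio was not read as a low level, because the files do not say why a value is missing.

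**Figure D1:**
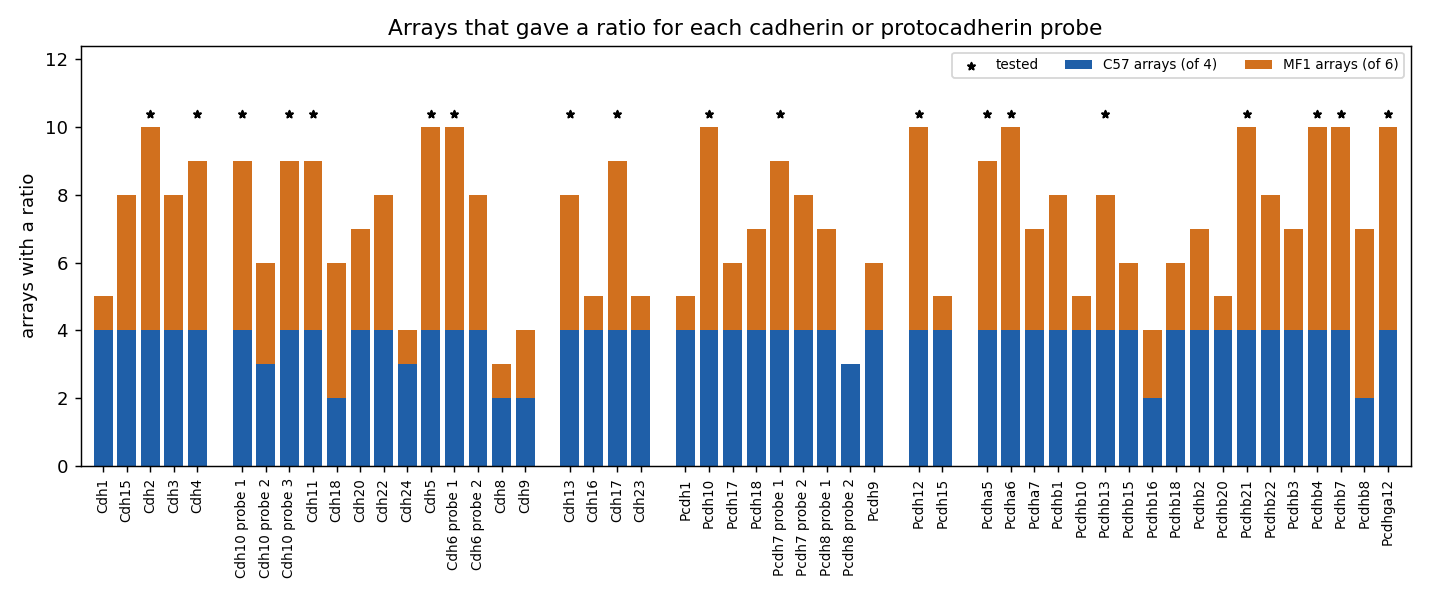
Number of arrays, of 4 for C57 and 6 for MF1, that gave a ratio for each of the 51 probes, ordered by family, with a star over each of the 19 probes that were tested. Most C57 bars reach 4, and the MF1 part varies from 0 to 6.

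None of the 19 tested probes differed between the caudal and the rostral end at an adjusted p under 0.05 (limma, Benjamini-Hochberg over 11855 probes), and neither did any other probe on the array: 0% of probes passed for the mean of both strains, for either strain or for the strain difference. The smallest adjusted p of a cadherin or protocadherin was 0.810 for the mean of both strains, against 0.271 over all probes. At an unadjusted p under 0.05, 2 of the 19 passed for the mean of both strains, Cdh10 on the rostral side and Pcdhga12 on the caudal side. The background for that count is 4.59% of all tested probes, made up of 2.67% with a negative and 1.92% with a positive ratio, and a count of 2 in 19 is too small to set apart from it. Ratios of 12 probes were negative and of 7 positive, with a median of -0.09, while 49.1% of all tested probes were negative and their median was 0.00. Without centring, when the pool medians over the tested probes ran from -0.18 to 0.36, the median of the 19 was 0.000125. Its side of 0 thus depends on the centring, which shifts all probes of an array by the same amount. The median size of the ratio regardless of sign was 0.19 for these probes and 0.12 for all, and the median SD between pools was 0.39 and 0.35. Only 1 of the 19 (5.26%) had a single sign in every pool measured, against 8.76% of all tested probes.

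**Figure D2:**
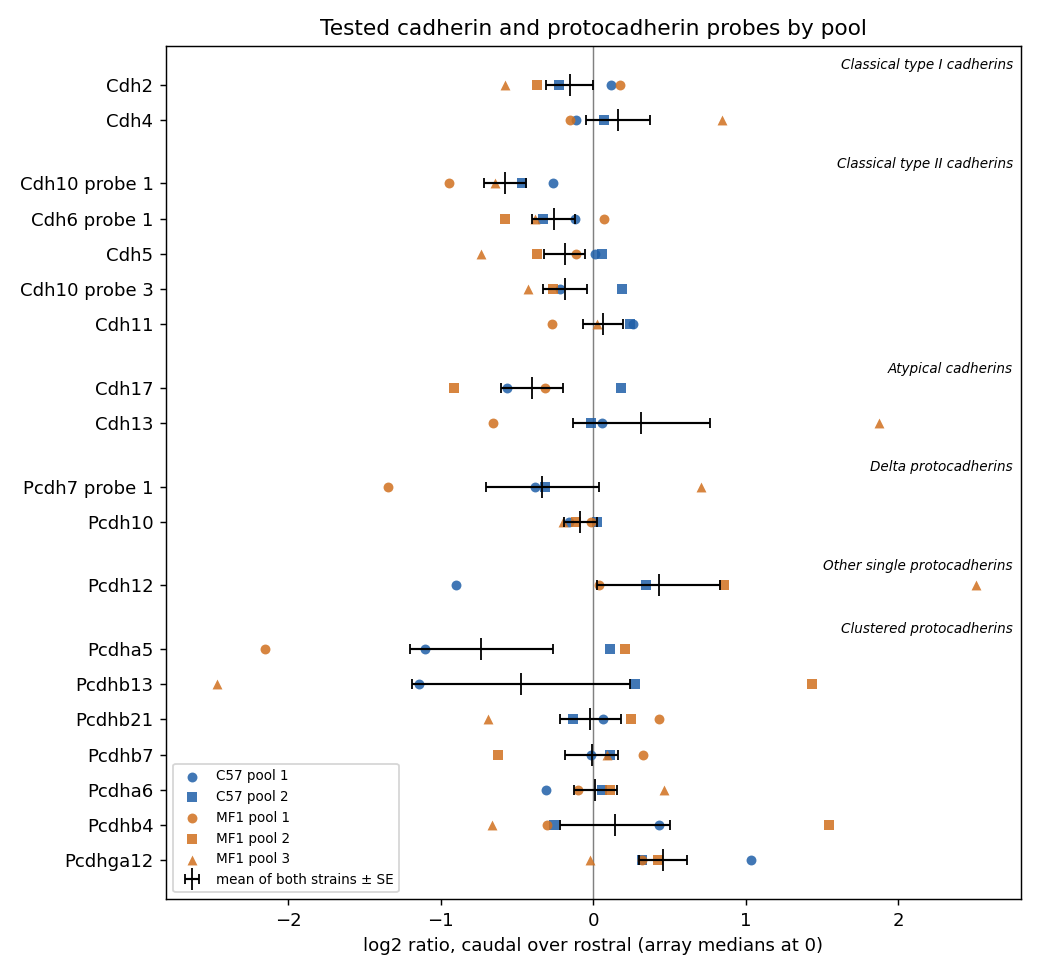
Log2 ratio of caudal over rostral RNA in each pool (points; blue C57, orange MF1) for the 19 tested probes by family, with the mean of both strains and its SE (black). Cdh10 probe 1 is the only row with every point on one side of 0; Pcdh10 has the narrowest spread and Pcdhb13 the widest.

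The type II cadherins include the probe with the smallest p for the mean of both strains. Of 13 probes for 10 genes, 5 probes for 4 genes were tested, and 4 of the 5 had negative means. Cdh10, an adhesion protein of restricted fields in the forebrain, is represented by 3 probes. Probe 1 had ratios of -0.26 and -0.47 in the C57 pools and of -0.94 and -0.64 in MF1 pools 1 and 3, with no value from both dyes in MF1 pool 2. All 4 pools were therefore on the rostral side. The mean of both strains was -0.58 ± 0.14, which is 1.49-fold more RNA at the rostral end, with an adjusted p of 0.810 by limma.

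The arrays behind that mean were less even than the pools. In MF1 pool 1 the array with the caudal side in Cy5 gave 0.47 and the other -2.36, and in C57 pool 1 they gave -0.89 and 0.37. The 2 arrays had the same sign in 2 of the 4 pools, and 6 of the 9 single arrays were negative. With the caudal side in Cy5 the plain mean over arrays was -0.21 (-0.30 with both strains weighted equally). With the rostral side in Cy5 both means were -0.87. The unadjusted p was no longer under 0.05 without C57 pool 1, without C57 pool 2, on the arrays with the caudal side in Cy5 alone, or with single arrays and a dye term in the fit.

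The other 2 probes of Cdh10 gave different sizes. Probe 3 had -0.22 and 0.19 in C57, and -0.26 and -0.43 in MF1 pools 2 and 3, with a mean of -0.18 ± 0.14 (adjusted p = 0.993). Its means by dye order had opposite signs, -0.68 when caudal RNA carried Cy5 and 0.34 when rostral RNA did, while the arrays of a pool shared a sign in 2 of the 4 pools. Probe 2 was measured on 6 arrays and not tested. All 6 of its ratios were negative, at -0.20 on the C57 pool 1 array and between -3.64 and -2.58 on the others. In the pools measured with both dyes it stood at -2.95 (C57 pool 2) and -3.38 (MF1 pool 3). The probes thus share a negative mean and differ widely in its size, and with the tested probes of the gene averaged the ratio was -0.39.

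Cdh6, a type II cadherin known for marking subdivisions of the forebrain, was measured on all 10 arrays by probe 1. The pools gave -0.12 and -0.33 in C57, and 0.07, -0.58 and -0.38 in MF1. Of the 5 pools, 4 were on the rostral side, and the C57 values lay inside the range of MF1. In all 5 pools both arrays had the same sign, with a gap of at most 0.28 between them, and the means by dye order were -0.22 and -0.32. The mean of both strains was -0.26 ± 0.14 (adjusted p = 0.993). The mean was -0.31 without C57 pool 1 and -0.21 without C57 pool 2. It was -0.35, -0.19 and -0.24 without MF1 pools 1, 2 and 3. MF1 pool 1 was the pool on the other side of 0, so leaving it out could only move the mean further from 0. Without it the unadjusted p was under 0.05, where 14.6% of all tested probes passed, and the adjusted p was 0.304 by limma. Probe 2 of Cdh6 was not tested: it stood at 0.07 and 0.00 in C57 and at -1.32 in MF1 pool 1, where its arrays gave 0.19 and -2.84.

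**Figure D3:**
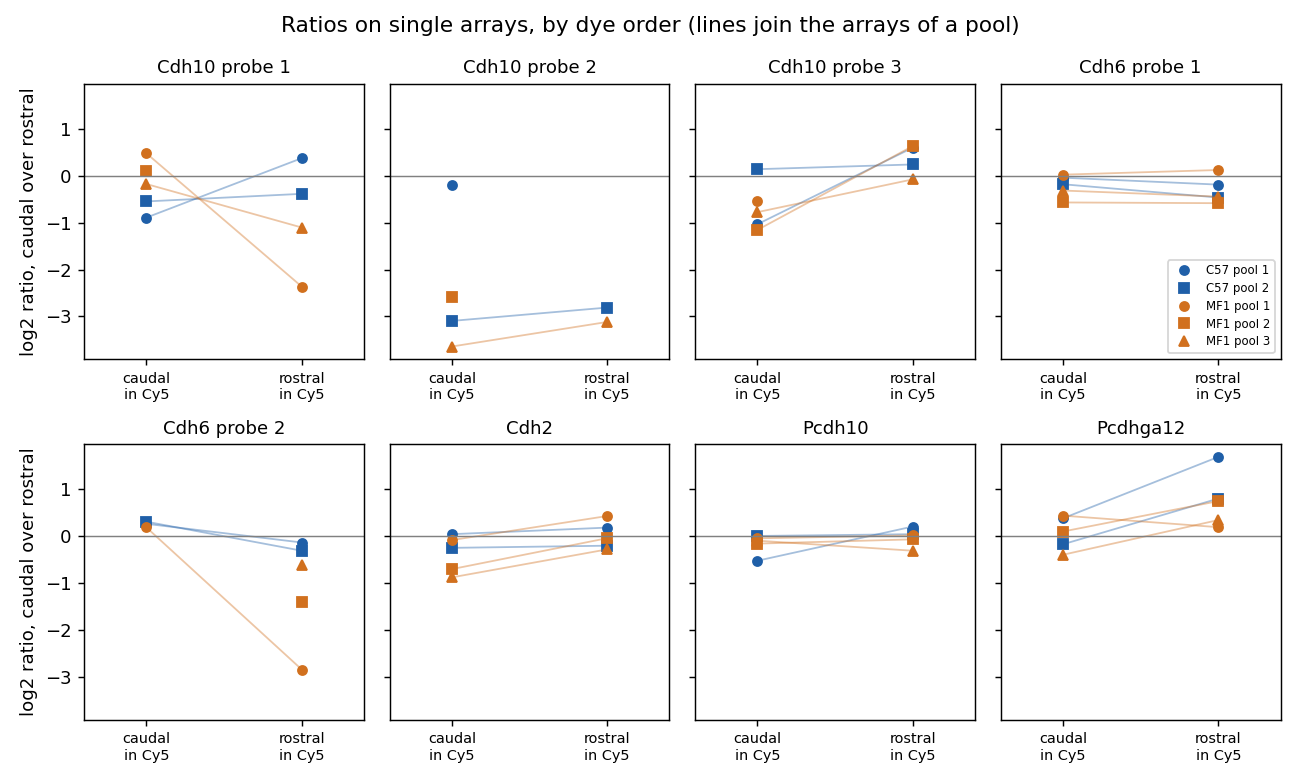
Log2 ratio on each array for 8 probes, split by which end of the cortex carried Cy5, with a line joining the arrays of a pool; blue is C57 and orange MF1. The lines of Cdh6 probe 1 are nearly flat, those of Cdh10 probe 3 and most of those of Pcdhga12 climb from left to right, and those of Cdh10 probe 1 cross.

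Cdh5 (VE-cadherin), the adhesion protein of endothelial junctions, was near 0 in both C57 pools (0.01 and 0.05) and negative in the MF1 pools (-0.11, -0.37 and -0.74). The difference between the strains, -0.44 ± 0.27 for MF1 minus C57, did not pass the test (adjusted p = 0.998). Of 9 tested endothelial markers 5 had negative means, as Cdh5 did, and 4 positive ones, with a median of -0.05. At an unadjusted p under 0.05, 2 of the 9 passed, both positive, where 4.59% of all tested probes passed. Cldn5, a tight junction protein, had 0.33 ± 0.12, and Esam had 0.98 ± 0.35, which came from MF1 (C57 mean 0.01). Among the negative ones Tek had -0.23 ± 0.19 and Flt1 -0.19 ± 0.14. Cdh11, a type II cadherin of mesenchyme and of parts of the brain, had 0.26 and 0.24 in C57, and -0.27 and 0.02 in MF1 pools 1 and 3. The difference between its strains was -0.37 ± 0.27 (adjusted p = 0.998).

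The other type II cadherins could not be tested. Cdh8, which is known for graded expression in the embryonic cortex, was measured on 3 arrays only. Its 2 arrays of C57 pool 2 gave -1.71 and 2.19, a mean of 0.24 between values of opposite sign, and an MF1 array gave 4.49. Cdh9 had 1.70 and Cdh24 -0.01 in C57 pool 2, the only pool with both dyes for either. Cdh18 ran from -0.55 to 3.52 over 3 pools, Cdh20 from -0.01 to 1.11 over 3 and Cdh22 from -0.13 to 0.47 over 3.

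The type I cadherins showed no regional difference beyond the spread between pools. Cdh2, the N-cadherin of the apical junctions that hold the neuroepithelium together, gave 0.12 and -0.22 in C57, and 0.18, -0.37 and -0.58 in MF1. Pools of both strains lay on both sides of 0. The mean was -0.16 ± 0.16 (adjusted p = 0.993), and the mean over arrays was -0.37 with the caudal side in Cy5 and 0.02 with the rostral side in Cy5. Cdh4 (R-cadherin), a close relative of Cdh2 found in restricted parts of the brain, gave -0.12 and 0.07 in C57, and -0.15 and 0.84 in MF1 pools 1 and 3, with a mean of 0.16 ± 0.21. MF1 pool 3 was thus high, and the other pools with both dyes lay close to 0. MF1 pool 2 had only its array with the rostral side in Cy5, which gave 0.68.

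The remaining type I genes belong to other tissues and were not tested. Cdh1 (E-cadherin), of epithelia, had -2.36 and 0.50 in the C57 pools. Cdh3 (P-cadherin), also of epithelia, had -0.15 and 0.13 in C57 and -1.89 in MF1 pool 1. Cdh15 (M-cadherin), of muscle, stayed between -0.10 and -0.02 in 3 pools, although its single arrays ranged from -0.80 to 0.75. None of the 3 had more than 1 MF1 pool with both dyes.

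Of the 4 atypical cadherins, 2 were tested. Cdh13 (T-cadherin), which is held in the membrane by a lipid anchor and has no cytoplasmic tail, gave 0.06 and -0.01 in C57, and -0.65 and 1.87 in MF1 pools 1 and 3. The MF1 pools lay on opposite sides, and the mean was 0.32 ± 0.45. Cdh17, a cadherin of gut epithelium, gave -0.56 and 0.18 in C57, and -0.32 and -0.91 in MF1 pools 1 and 2, with a mean of -0.40 ± 0.20 (adjusted p = 0.993). It was on the rostral side in 3 of 4 pools. Cdh16, of kidney epithelium, had -0.69 and -0.05 in C57, and Cdh23, of the tip links of hair cells, had 0.02 and -0.80; neither had a value from both dyes in MF1.

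Among the delta protocadherins, Pcdh10 had the most even values of all the tested probes. This protocadherin, which is known for marking fields of the forebrain and for a role in axon growth, gave -0.16 and 0.03 in C57, and -0.01, -0.11 and -0.20 in MF1. Its SD over the 5 pools was 0.095, the mean was -0.09 ± 0.11 (adjusted p = 0.993), and the strains overlapped. Pcdh7 probe 1 gave -0.38 and -0.32 in C57, and -1.35 and 0.71 in MF1 pools 1 and 3, for a mean of -0.33 ± 0.37. The MF1 pools lay on both sides of the C57 pair. Pcdh7 probe 2, not tested, gave -0.25 and 0.78 in C57 and 0.39 in MF1 pool 3, so the probes differed in sign in C57 pool 2.

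The other delta protocadherins were not tested. Pcdh8, a protocadherin of the early mesoderm and of synapses, had 0.80 and -0.32 in C57 and -2.16 in MF1 pool 3 by probe 1, and -0.94 in C57 pool 1 by probe 2, so that its probes disagreed in sign in that pool. Pcdh17, a protocadherin of cortical and striatal zones, had -0.32 and 1.31 in C57. Pcdh1 had -1.91 and 1.30, Pcdh9 -3.60 and -0.38, and Pcdh18 -0.26 and 0.04 in the same pools. Of these 5 genes, 4 had C57 pools of opposite sign, and Pcdh9 was negative in both. Its arrays were not of 1 sign, however: those of C57 pool 2 gave 1.55 and -2.32, and 3 of its 6 arrays were positive.

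Of the other single protocadherins, Pcdh12 was tested. This protocadherin of endothelial cells gave -0.90 and 0.35 in C57, and 0.04, 0.86 and 2.51 in MF1. MF1 pool 3 was the highest, but its arrays gave 4.65 and 0.36. Single arrays were positive in 9 of 10 cases; the lowest, in C57 pool 1, was -2.29. The mean of both strains was 0.43 ± 0.41, with C57 at -0.28 ± 0.63 and MF1 at 1.13 ± 0.51. It rested on single pools, since it was 0.08 without MF1 pool 3, 0.12 without C57 pool 2 and 0.74 without C57 pool 1. Pcdh15, of hair cells and photoreceptors, had 0.03 and -0.26 in C57 and was not tested.

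The clustered protocadherins had no common direction. Of 18 probes for 18 genes, 7 were tested, 4 with negative and 3 with positive means. Pcdhga12, an isoform of the gamma cluster, gave 1.04 and 0.32 in C57, and 0.32, 0.43 and -0.02 in MF1. It was on the caudal side in 4 of 5 pools, with C57 pool 1 the highest. The mean was 0.46 ± 0.16, or 1.37-fold more RNA at the caudal end, with an adjusted p of 0.993. The size of this ratio went with the dye order: the mean was 0.07 with the caudal side in Cy5 and 0.76 with the rostral side in Cy5. Without C57 pool 1 the mean was 0.28, and its unadjusted p was no longer under 0.05; the same held without MF1 pool 1 (0.44) or MF1 pool 2 (0.41).

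In the alpha cluster, Pcdha5 gave -1.10 and 0.11 in C57, and -2.15 and 0.21 in MF1 pools 1 and 2, with a mean of -0.73 ± 0.47. In each strain 1 pool mean was close to 0 and the other strongly negative. The means close to 0 came from arrays of opposite sign, 1.12 and -0.90 in C57 pool 2 and 1.88 and -1.46 in MF1 pool 2. By dye order the mean over arrays was 0.23 with the caudal side in Cy5 and -1.50 with the rostral side in Cy5. Pcdha6 gave -0.31 and 0.06 in C57, and -0.10, 0.11 and 0.46 in MF1, with a mean of 0.01 ± 0.14. Pcdha7, not tested, had -1.14 and 0.12 in C57 and 0.08 in MF1 pool 1. The alpha isoforms share constant exons at the 3′ end, as do the gamma isoforms, and the position of these probes in the transcripts is not known from the sources used here, so the isoforms of a cluster may not be told apart.

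In the beta cluster, whose genes have a single coding exon each and resemble one another closely, Pcdhb13 gave -1.14 and 0.27 in C57, and 1.43 and -2.46 in MF1 pools 2 and 3, with a mean of -0.47 ± 0.72. Pcdhb4 gave 0.43 and -0.26 in C57, and -0.31, 1.55 and -0.66 in MF1, with a mean of 0.14 ± 0.36. In both genes the pools of each strain lay on both sides of 0. Pcdhb21 and Pcdhb7 had means of -0.02 ± 0.20 and -0.01 ± 0.17. Of the untested beta probes, Pcdhb22 was negative in all 3 pools measured (-1.32, -0.18 and -2.65) and on 7 of 8 arrays. Pcdhb3 was positive in both C57 pools (0.29 and 1.58). The other 8 untested beta probes had pool values between -1.85 (Pcdhb16) and 1.41 (Pcdhb8).

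The strains were compared because the one is inbred and the other outbred. In C57, 1 of the 19 probes had an unadjusted p under 0.05, Pcdhga12 (0.68 ± 0.24, adjusted p = 1), where 1.86% of all tested probes did. In MF1, 1 of 19 did, Cdh10 probe 1 (-0.79 ± 0.20, adjusted p = 0.642), where 6.26% of all did. The tested difference between the strains had an unadjusted p under 0.05 for 0 of 19, against 2.43% of all probes, and its adjusted p was 0.998 or more. The largest difference was that of Pcdh12, 1.41 ± 0.81. For Cdh10 probe 1 the difference was -0.43 ± 0.28 and for Pcdhga12 it was -0.44 ± 0.31, so neither ratio was shown to belong to 1 strain.

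**Figure D4:**
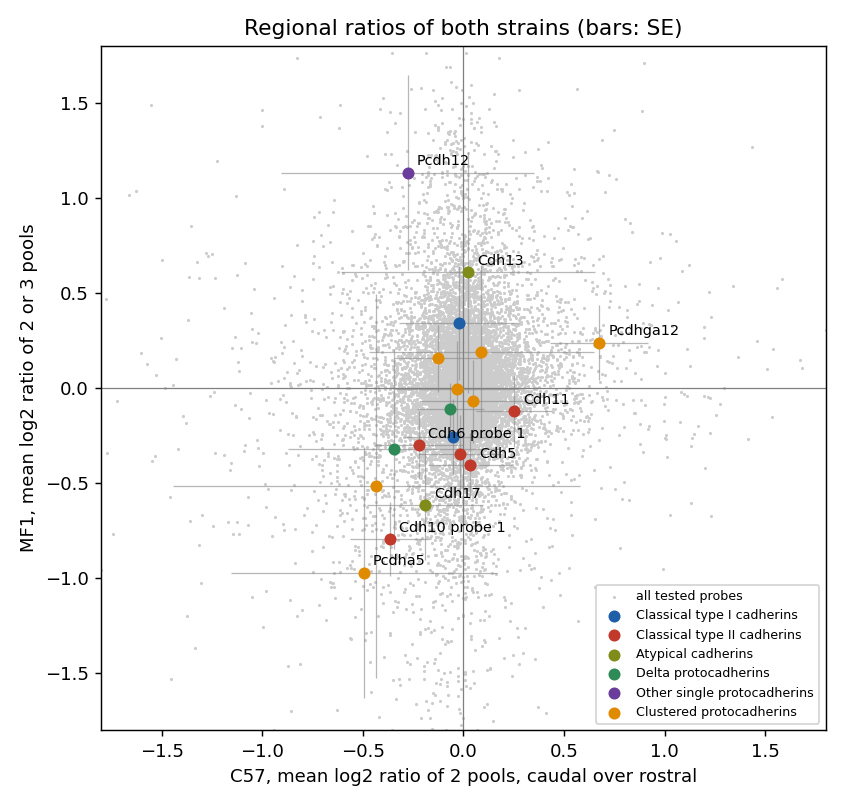
Mean log2 ratio of caudal over rostral RNA in C57 (x axis) and MF1 (y axis) for the tested cadherin and protocadherin probes (coloured by family, bars: SE) over all tested probes (grey; those beyond the axes are not drawn). Cdh10 probe 1, Cdh6 probe 1 and Pcdha5 lie where both strains are negative and Pcdhga12 where both are positive, while Pcdh12 has a positive mean in MF1 and a negative one in C57.

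The dye order moved with the values on these arrays. Over the tested probes, the 2 arrays of a pool, turned to the same direction, correlated at -0.12 to 0.01 (median -0.06, 5 pairs). Arrays of different pools correlated at -0.01 to 0.30 (median 0.12, 20 pairs) when the dye order was the same and at -0.31 to 0.10 (median -0.08, 20 pairs) when it was opposite. These correlations are across probes, which are not independent replicates. The mean of the 2 arrays of a pool balances the dye order, and the part of dye in what is left was not tested. Over the tested probes the SD of the pool ratios was 0.45 and 0.30 in C57 and 0.55, 0.77 and 0.67 in MF1. The number of arrays limits the precision.

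The proteins that cadherins work with gave ratios centred on 0. Of 9 tested probes for 7 catenin genes, 5 were negative and 4 positive, with a median of -0.01. At an unadjusted p under 0.05, 0 passed, against 4.59% of all tested probes. Ctnnb1 (beta-catenin), which binds the tail of classical cadherins and carries Wnt signals, had 0.37 ± 0.25, and Ctnna2 (alpha-N-catenin), the neural link to actin, had -0.01 ± 0.15. The smallest p was that of Ctnnd1 (p120-catenin), which holds cadherins at the surface, at 0.30 ± 0.16. Of 18 probes for junction and actin partners, 10 were negative and 8 positive, with a median of -0.02. Of these 18, 1 had an unadjusted p under 0.05, which is near the 4.59% of all tested probes. It was Prkci, the atypical protein kinase C of the apical polarity complex, at 0.68 ± 0.19 (adjusted p = 0.962).

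Other cadherin superfamily genes (Celsr, Fat, Dchs, calsyntenins, desmosomal cadherins) had 8 negative and 5 positive means over 13 probes, with a median of -0.14. Of these, 2 had an unadjusted p under 0.05, both negative, against 4.59% of all tested probes (2.67% with a negative ratio). Clstn1, a calsyntenin that links cargo to kinesin, gave -0.33 and -0.10 in C57, and -1.01 and -0.47 in MF1 pools 1 and 3, with a mean of -0.48 ± 0.16. Cdhr5, a cadherin of epithelial microvilli, had a mean of -0.67 ± 0.22 but 1 positive pool of 4. Both adjusted p were 0.993 by limma.

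Genes that act on cadherins were likewise spread about 0. Of 8 probes for transcriptional repressors of cadherins, 4 were negative and 4 positive, with a median of -0.01, and Tcf4 had the smallest p, at 0.21 ± 0.13; Snai2, whose protein binds the E-box searched for above, had 0.14 ± 0.15. Of 8 probes for proteases that cut cadherins, 4 were negative and 4 positive, with a median of 0.01; Adam10, the sheddase of N-cadherin, had 0.32 ± 0.15. Of 15 probes for protocadherin partners, 5 were negative and 10 positive, with a median of 0.06. Wasf1, of the actin complex that delta protocadherins recruit, had the smallest p of that list, at -0.24 ± 0.16, and Ctcf, which loops the clustered protocadherin promoters to their enhancers, had -0.25 ± 0.18. In these 3 lists 0 probes had an unadjusted p under 0.05, against 4.59% of all tested probes.

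Markers of tissues next to the cortex differed in direction between the ends, and some went the same way as Cdh10 and Cdh6. Of 10 tested probes for the ventral telencephalon, 7 were negative, with a median of -0.31, and 4 had an unadjusted p under 0.05, against 4.59% of all tested probes. Dlx1 had -1.07 ± 0.27 and Ebf1 -0.72 ± 0.15. Dlx2 had -0.85 ± 0.14 and Dlx5 -0.32 ± 0.12, both carried by MF1 (-1.62 and -0.60) rather than C57 (-0.08 and -0.04). The 3 positive probes were Dlx6 at 0.16 ± 0.14, Gsx2 at 0.08 ± 0.16 and 1 probe of Lhx6 at 0.27 ± 0.56. Of 8 for surface ectoderm, 7 were negative, with a median of -0.32; Krt18 had -1.58 ± 0.14 (C57 -0.42, MF1 -2.74) and Trp63 -0.89 ± 0.16. Of 7 for meninges, 5 were negative, with a median of -0.06. Lists with a positive median were the cortical hem and choroid plexus (7 of 9 positive, median 0.18, Ttr 1.60 ± 0.15), blood (6 of 6, median 0.32) and neurons (6 of 9, median 0.18). The negative genes of the hem and choroid plexus list were Wnt8b at -0.13 ± 0.36 and Bmp7 at -0.03 ± 0.22. The blood median was 0.48 in C57 and 0.04 in MF1. In the neuron list Reln, of Cajal-Retzius cells, went the other way, with -0.71 ± 0.18 and a negative ratio in all 4 pools measured. The 6 probes of neocortical identity had a median of 0.03, and 5 were positive. Because these are ratios, the summed level of each list in the rostral and caudal samples is not known, and the part of these tissues in the ratios of Cdh10, Cdh6 and the other genes was not tested.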

How the data were processed

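The authors deposited a table of log2 ratios of the 2 channels for 10 arrays, with the scale read from the values; the array type, the scanner and any background correction or normalization are not known from the sources used here. The 232 control spots were left out, and 436 values at a shared ceiling (16.61, the log2 of 100000) and 40221 null values were treated as missing. Ratios were turned by the dye labels to give caudal over rostral and each array was centred on its median over the 8924 probes measured on all arrays (the medians were -0.33 to 0.625), since channel brightness is arbitrary. The arrays of a pool were averaged to 1 value.

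The 11855 probes with both dye orders in at least 2 pools of each strain entered 1 limma model (lmFit and eBayes of version 3.58.1, R 4.3.3) that had a coefficient per strain and contrasts for the mean of both strains, each strain and MF1 minus C57. P-values are 2-sided and adjusted by Benjamini-Hochberg over all 11855 probes at a threshold of 0.05. They set a mean ratio, or the strain difference, against 0 by the spread between these pools. That spread is 1 moderated value per probe shared by both strains. The p and SE of a strain therefore do not rest on its own pools alone. Errors are moderated SE. By exact sign changes, 5 pools cannot give a p below 0.0625. Probes of a gene were tested separately. The procedure was tested on simulated data.

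The members, lists and tests were chosen with earlier results of these data known. Values by pool are given for tested probes with an unadjusted p under 0.05, the 5 largest ratios in each direction, the cortical cadherins Cdh2, Cdh4, Cdh6, Cdh8, Cdh11, Pcdh8, Pcdh10 and Pcdh17, and genes with several tested probes. Of the partner lists, Ctnnb1, Ctnna2 and the gene of smallest p in each list are named, by their means; other genes and pool values given were chosen after their values were seen. Symbols come from the platform annotation, where 16632 probes had 1 symbol, 139 several and 4995 none; 15952 were matched by gene identifier to RefSeq genes of GRCm38.p6, including all 51 members. Alternatives covered centring, filters, dye handling, scaling, variance model, ceiling values, averaging of probes and leaving out each pool. Python 3.11.15 with matplotlib 3.10.9 drew the figures.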

Additional observations from a re-analysis of the deposited data

How the results depend on the processing

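Under the 18 alternatives, 0 cadherin or protocadherin probes passed the adjusted p; the smallest was 0.108, without MF1 pool 1. Over all probes, the fit of single arrays with a dye term called 12 for the mean of both strains and 3 for C57, none of them a cadherin or protocadherin. Of 252 ratios of 15 named probes, 17 changed sign, in 10 probes; for the mean of both strains Cdh10 probe 1 stayed between -0.87 (arrays with rostral RNA in Cy5) and -0.30 (caudal RNA in Cy5).

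The counts at an unadjusted p under 0.05 and the medians moved most. For the mean of both strains the count of 2 became 6 with a filter of 1 pool per strain (8.27% of all probes then passed), 1 with all 5 pools required (4.13%), 1 with caudal RNA in Cy5 (6.39%) and 7 with rostral RNA in Cy5 (10.9%), when the median turned to 0.064; without centring it was 0.000125. Leaving out 1 MF1 pool gave 3 each time, where 14.6% (without pool 1), 5.69% (pool 2) and 7.49% (pool 3) of all probes passed. The median was -0.07 without C57 pool 1 and -0.08 without C57 pool 2. Either of these fits leaves 1 C57 pool, so no count is given for them, and the list of counts is not complete. For C57 the count of 1 became 2 with rostral RNA in Cy5, where 4.78% of all probes passed. The C57 median of -0.05 became 0.0808 without centring, -0.19 with caudal RNA in Cy5, 0.078 with rostral RNA in Cy5 and 0.0555 without C57 pool 1. For MF1 the count of 1 became 6 with a filter of 1 pool per strain (10.5% of all), 3 with single arrays (6.25%), 3 with pool weights (7.90%), 2 with caudal (9.41%) and 5 with rostral RNA in Cy5 (13.5%), when the median was 0.038. Without MF1 pool 1 it was 7, where 21.5% of all probes passed, without pool 2 it was 3 (6.56%) and without pool 3 it was 2 (9.35%). For the strain difference the count of 0 (2.43% of all probes) became 3 with a filter of 1 pool per strain (6.48%). It was 1 with caudal (3.26%) and 1 with rostral RNA in Cy5 (4.86%), and 1 with pools scaled (3.48%). Without MF1 pool 1 it was 3 (13.1%), without pool 2 it was 0 (4.06%) and without pool 3 it was 1 (5.13%). The median of the strain difference was -0.24 with rostral RNA in Cy5 and ran from -0.19 to -0.054 without single pools. The cause of these shifts was not tested, except that filters change how many probes are tested.

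With the pool number as a replicate block, 0 probes passed the adjusted p in any comparison. Of the 10 members measured in all pools, 1 had an unadjusted p under 0.05 for the mean of both strains, where 5.27% of all probes did. The member counts were 0 for C57 (2.96% of all probes), 1 for MF1 (7.81%) and 0 for the difference (3.04%). The 1 for the mean of both strains was Pcdh12 (0.77, adjusted p = 0.668), which did not pass without the block, while Pcdhga12 no longer passed and Cdh10 was not in that fit. In the labels, pools of different strains share only a number. Deviations of same-numbered pools correlated at 0.15 (pool 1) and -0.02 (pool 2) over 8924 probes. For C57 pool 2 and MF1 pool 3, which differ in number, the correlation was 0.19. With 2 C57 pools, the deviations of one mirror those of the other, so these correlations cannot decide whether the numbers mark a pairing. Limits are the small number of pools, the missing MF1 values and the dye order; the signal over background is not known.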

Other observations

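In every tested cadherin or protocadherin probe, the widest gap between the 2 arrays of a pool exceeded the size of the mean ratio. For Pcdh10 the gap was 0.73 against a mean of -0.09, and for Cdh6 probe 1 it was 0.28 against -0.26. How often this holds over all probes on the array was not counted. Pcdhb8 had a mean of -3.37 over its arrays with caudal RNA in Cy5 and of 3.46 over those with rostral RNA in Cy5, and its arrays of MF1 pool 1 were 9.22 log2 units apart. Cdh18 had a gap of 8.08 in a pool, and Pcdhb13 one of 6.79. At the other end, the largest gap within a pool was 0.28 for Cdh6 probe 1 and 0.27 for Pcdh15, which had 2 such pools. These probes were chosen after their values were seen.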
